A study of Drosophila melanogaster with 6 samples.

Results

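Innate immune effector and recognition genes of *Drosophila melanogaster* were followed in ribosome-bound RNA on 2 diets. The set holds 37 genes chosen by FlyBase symbol, namely 21 antimicrobial peptide genes, 4 Turandot genes, 9 peptidoglycan recognition protein (PGRP) genes and 3 genes of Imd signalling and its regulation. Symbols were paired with the gene IDs of the count tables through the BDGP6 annotation. Of the 37 genes, 36 matched 1 of the 17489 counted genes each, and *Drs* (drosomycin) was not analysed here. The diet test took in 25 of them, those that reached 10 counts in 3 or more libraries, and the other 11 were too low to test.

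RNA was recovered by translating mRNA affinity purification (TRAP), which pulls down ribosomes that carry a tagged Rpl3 protein and sequences the mRNA on them. The flies were males of the genotype *Gr5a>UAS-Rpl3-3XFLAG*, in which the *Gr5a* driver makes the tagged protein in the sweet taste neurons. Flies were collected 2 days after eclosion, and from day 5 to day 12 they ate food with 5% sucrose (control diet, CD + OSMI) or 30% sucrose (sugar diet, SD + OSMI), and both foods carried 10 µM OSMI-1, an inhibitor of O-GlcNAc transferase, in 10% DMSO. A replicate was a pool of 300 heads, and there were 3 per diet (replicates 1, 2 and 3 for CD + OSMI, replicates 4, 5 and 6 for SD + OSMI). The comparison therefore asks what 7 days of extra sucrose did while the inhibitor was present on both sides, and drug-free flies and input RNA were not analysed here.

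Insects meet microbes with secreted proteins made mostly in the fat body, the gut and the hemocytes. PGRPs bind peptidoglycan of the bacterial wall and feed the Imd pathway, through the adaptor Imd and the NF-κB factor Relish, or the Toll pathway, and both switch on genes for antimicrobial peptides. Several PGRPs and Pirk work the other way and hold the Imd response down. Turandot proteins are small secreted proteins that appear in the hemolymph after infection, heat and other stress, in part under JAK/STAT control.

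Total counts per library ranged from 13324513 to 16122009. Over all genes, 823 of 11915 tested genes were higher on SD + OSMI (6.91%) and 260 were lower (2.18%) at an adjusted p under 0.1 in edgeR's quasi-likelihood test. The 9 sweet taste receptor genes, which define the labelled cells, were low, with a summed level between 2.68 and 5.75 CPM (counts scaled to a common library size) on CD + OSMI and between 3.09 and 5.19 CPM on SD + OSMI, and 4 of the 9 had no count in any library. These 4, *Gr64b* to *Gr64e*, lie in 2 pairs with nearly the same annotated exons (*Gr64b* with *Gr64c*, *Gr64d* with *Gr64e*), so reads may not have been assignable to 1 gene and their zeros do not give a level. Marker lists of other tissues summed to far higher levels. These lists differ in the number and length of their genes, so the sums do not rank cell types. The paper reported *Gr5a*, *Gr64f* and *Gr64a* enriched over input and the bitter receptor genes *Gr66a* and *Gr32a* depleted, a comparison not repeated here. The summed level of fat body markers was between 9679 and 11963 CPM on CD + OSMI and between 6551 and 8280 CPM on SD + OSMI, that of hemocyte markers 794 to 881 CPM and 825 to 836 CPM, and that of gut markers 445 to 731 CPM and 513 to 899 CPM, control diet first. Markers of the male accessory gland and ejaculatory duct (14 of 20 tested genes higher and 1 lower) of the testis (17 of 27 higher) and of the oenocytes (4 of 5 higher) moved with the diet as well. Neuron markers were lower for 2 of 10 and muscle markers higher for 2 of 11, and no photoreceptor (15 tested), glia (10) or cuticle (8) marker passed the threshold. In bulk samples such as these, fewer cells of a type and less RNA per cell cannot be told apart.

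Of the 25 tested immune genes, 6 were lower on SD + OSMI and 0 were higher, against 2.18% of all tested genes lower and 6.91% higher. The 6 were the drosomycin-like genes *Drsl4* and *Drsl5*, the peptide gene *Listericin*, the Turandot genes *TotA* and *TotX*, and the Imd inhibitor *pirk*. DESeq2 called 0 higher (9.53% of all genes it tested), but it gave no adjusted p for *CecA1* and *PGRP-SC2*. Limma-voom called 1 higher, *CecA1* (6.55% of all tested genes). At an unadjusted p under 0.05 in edgeR, 8 were lower and 2 higher, against 6.85% and 14.5% of all tested genes. The libraries of the diets did not overlap for 12 genes that were lower on SD + OSMI and 2 that were higher, against 10.2% and 14.5% of all tested genes. By both measures the 2 higher genes were *CecA1* and *PGRP-SC2*, which passed the filter on low counts only with their sugar-diet libraries. Lack of overlap does not give the size of a change, and for *Rel* and *PGRP-LB* the nearest libraries of the diets were almost equal. The median log2 fold change of SD + OSMI over CD + OSMI was -0.20 over the 25 genes and 0.00 over all tested genes, and 16 of the 25 were below 0 against 50.4% of all tested genes. These counts describe genes that were listed with earlier results of these data known.

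**Figure D1:**
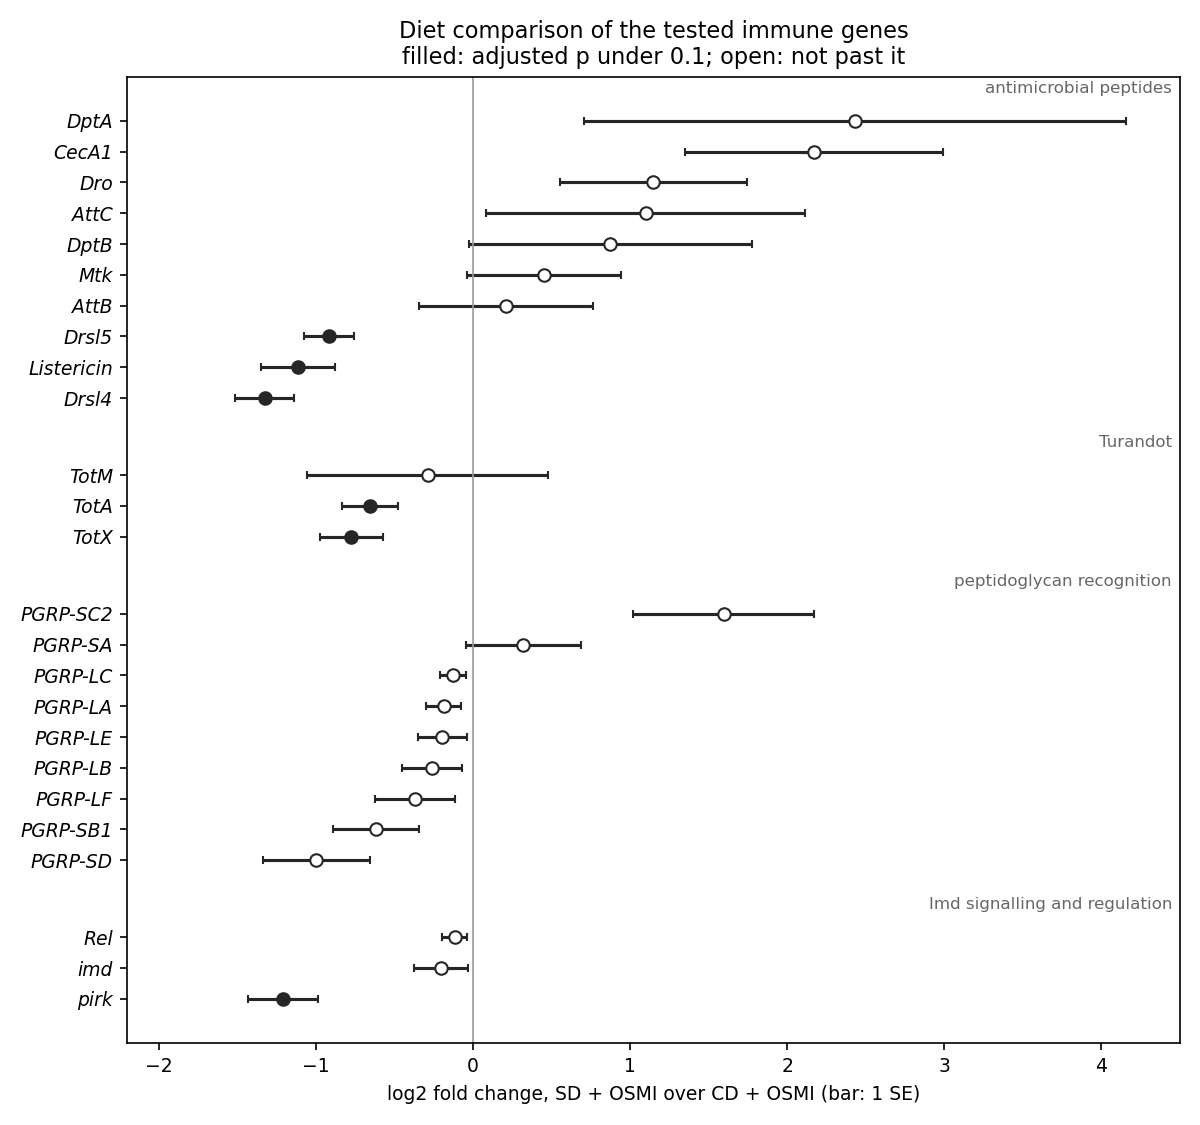
Log2 fold change of SD + OSMI over CD + OSMI (x axis, edgeR) for each of the 25 tested immune genes, grouped by role. Points are estimates, bars are 1 SE, and filled points have an adjusted p under 0.1. The 6 filled points all lie below 0, and the genes farthest above 0, *DptA* and *CecA1*, are open and have wide bars.

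Among the 20 matched antimicrobial peptide genes, 10 could be tested. Of these 3 were lower and 0 higher, against 2.18% and 6.91% of all tested genes. The other 7 had log2 fold changes above 0 with wide errors. *Drsl4* and *Drsl5* encode relatives of drosomycin, the antifungal peptide that gives the family its name. They are neighbours on chromosome arm 3L of BDGP6, *Drsl4* at bases 3315620 to 3315942 and *Drsl5* at bases 3316781 to 3317144, both on the + strand and with 838 bases between them.

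*Drsl4* stood at 14.6, 12.0 and 16.1 CPM in CD + OSMI replicates 1, 2 and 3 and at 6.08, 5.01 and 5.95 CPM in SD + OSMI replicates 4, 5 and 6. Every control-diet library was above every sugar-diet library, with a wide gap between them. The mean fell from 14.2 ± 2.07 CPM to 5.68 ± 0.583 CPM (± is the standard deviation here and below, n = 3 per diet), 2.51-fold lower by the fitted ratio (log2 fold change -1.33, SE 0.19, adjusted p = 0.0026, edgeR). *Drsl4* was the 1 immune gene that passed the threshold whichever library was left out, with adjusted p between 0.0016 and 0.034.

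*Drsl5* stood at 49.1, 39.2 and 63.1 CPM on CD + OSMI (replicates 1, 2 and 3, the order used throughout) and at 29.6, 24.6 and 26.0 CPM on SD + OSMI (replicates 4, 5 and 6). The control-diet libraries again all lay above the sugar-diet ones, and they spread more. The mean fell from 50.5 ± 12.0 to 26.7 ± 2.59 CPM, 1.89-fold (log2 fold change -0.92, SE 0.16, adjusted p = 0.015). Leaving out SD + OSMI replicate 5 or 6 gave an adjusted p of 0.105 or 0.137. Of the 4 other drosomycin-like genes listed, *Drsl2* and *Drsl3*, which lie in the same 2796 bases as *Drsl4* and *Drsl5*, had 9 counts and 0 counts over all libraries together, and *Drsl1* and *Drsl6* had 4 and 6 counts.

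*Listericin*, a secreted antibacterial peptide gene known as a target of PGRP-LE and JAK/STAT signalling, stood at 6.65, 5.97 and 6.75 CPM on CD + OSMI and at 2.91, 2.94 and 3.09 CPM on SD + OSMI. Replicates lay close together within each diet and the diets did not overlap. The mean fell from 6.46 ± 0.424 to 2.98 ± 0.0919 CPM, 2.16-fold (log2 fold change -1.11, SE 0.24, adjusted p = 0.024). Leaving out CD + OSMI replicate 3 gave an adjusted p of 0.106, and leaving out SD + OSMI replicate 6 gave 0.137.

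Of the 4 Turandot genes, 3 were tested and 2 were lower, against 2.18% of all tested genes. *TotA*, the best known stress-induced member, stood at 12.2, 14.6 and 15.4 CPM on CD + OSMI and at 9.44, 7.45 and 9.93 CPM on SD + OSMI. *TotX* stood at 11.1, 9.81 and 8.82 CPM on CD + OSMI and at 6.27, 4.89 and 6.25 CPM on SD + OSMI. For both genes the control-diet libraries all lay above the sugar-diet libraries, with a narrower gap than for *Drsl4*. The mean of *TotA* fell from 14.1 ± 1.66 to 8.94 ± 1.31 CPM, 1.57-fold (log2 fold change -0.65, SE 0.18, adjusted p = 0.055). The mean of *TotX* fell from 9.91 ± 1.14 to 5.80 ± 0.793 CPM, 1.71-fold (log2 fold change -0.77, SE 0.20, adjusted p = 0.047).

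Both Turandot results were near the threshold. The adjusted p of *TotA* was between 0.167 and 0.229 when CD + OSMI replicate 2 or 3 or SD + OSMI replicate 5 or 6 was left out, and it was 0.055 with all libraries. The adjusted p of *TotX* was between 0.102 and 0.195 without any 1 library other than SD + OSMI replicate 4. *TotA* and *TotX* lie in a stretch of 34483 bases on 3R with *TotC* between them, and *TotC* had only 4 to 18 counts per library and was not tested. The stretch also holds *TotB* and *TotZ*, which are outside the gene set and had 1 and 0 counts over all libraries. *TotM*, on 2L, had 3 to 18 counts per library, and its log2 fold change was -0.29 with a wide error (SE 0.77, adjusted p = 0.871).

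*pirk* encodes a protein that binds PGRP-LC and Imd and dampens the pathway, and its own transcription is driven by Relish. It stood at 10.2, 12.1 and 10.97 CPM on CD + OSMI and at 4.88, 6.08 and 3.31 CPM on SD + OSMI. The lowest control-diet library was well above the highest sugar-diet library. The mean fell from 11.1 ± 0.942 to 4.75 ± 1.39 CPM, 2.31-fold (log2 fold change -1.21, SE 0.22, adjusted p = 0.013). Without SD + OSMI replicate 6, in which *pirk* was lowest, the adjusted p was 0.109.

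**Figure D2:**
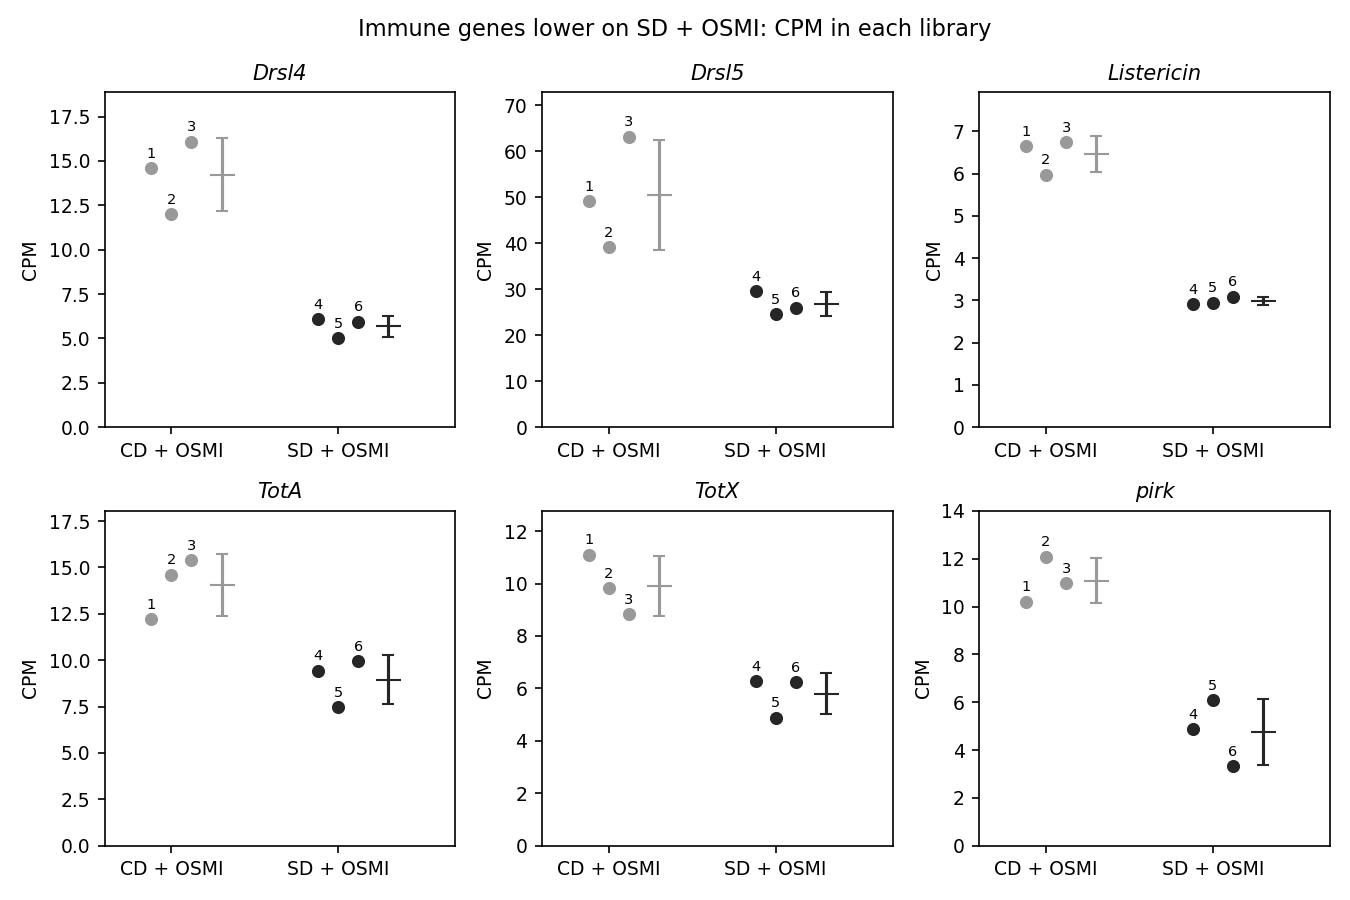
CPM (y axis, from 0) of the 6 immune genes that were lower on SD + OSMI, in each library. Points are single libraries labelled by replicate number and the bars are the mean and standard deviation of 3 replicates per diet. In all 6 panels the libraries of CD + OSMI lie above those of SD + OSMI.

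Fat body markers were lower on SD + OSMI together with these 6 genes. Of 14 tested fat body markers 8 were lower and 0 higher, against 2.18% and 6.91% of all tested genes, and all 16 matched markers had counts. The list includes the yolk protein genes *Yp1*, *Yp2* and *Yp3*, which were lower without overlap but varied widely and did not pass the threshold. The storage protein gene *Lsp2* fell by 6.63 on the log2 scale (adjusted p = 1.42e-13), and *Sodh1* (log2 fold change -0.94, adjusted p = 0.00024), *Adh* (-1.14, 0.0014) and the lipid droplet gene *Lsd-1* (-0.72, 0.0014) were also lower. With the larval serum protein genes and *Lsd-1* set aside, 4 of 10 fat body markers were lower. Of 12 hemocyte markers none was past the threshold (3 at an unadjusted p under 0.05), and gut markers had 1 of 15, the lysozyme gene *LysD*, which was lower. The part of the fat body signal in the fall of the immune genes was not tested.

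**Figure D3:**
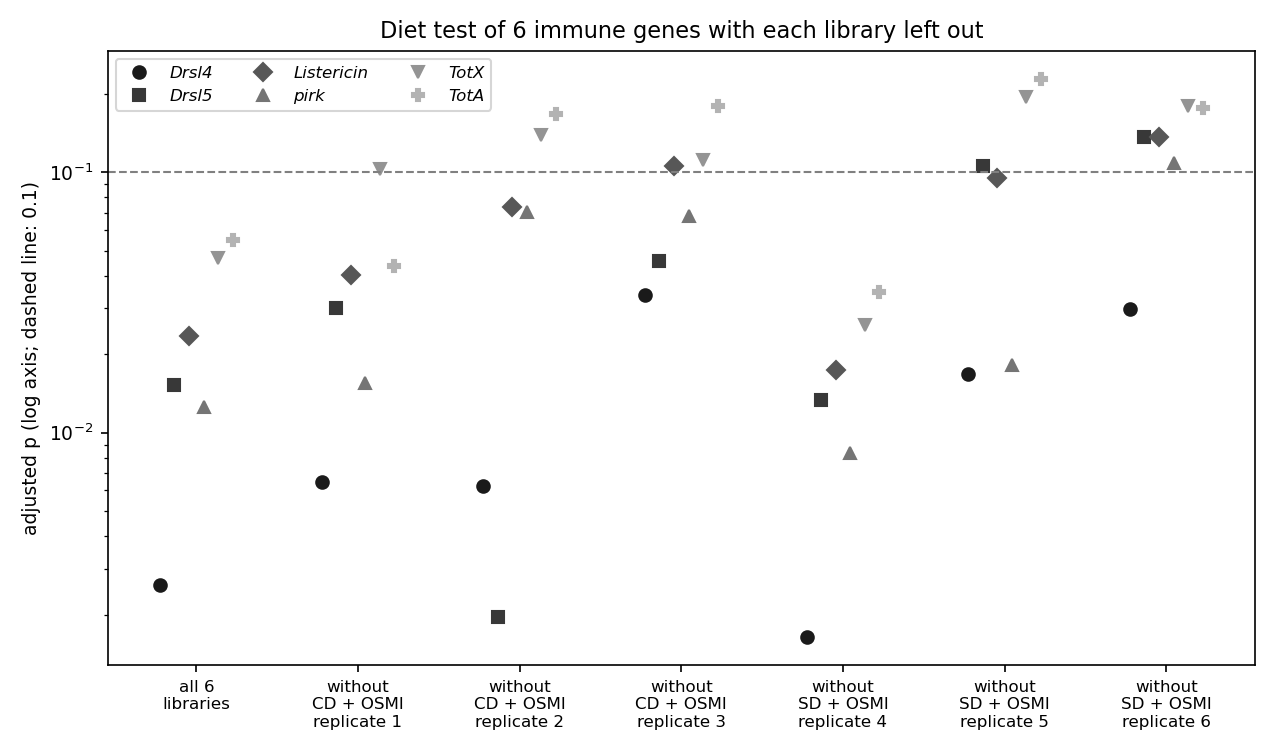
Adjusted p of the diet test (y axis, log scale) for the 6 immune genes, with all libraries and with each library left out (x axis). The dashed line marks the threshold of 0.1. *Drsl4* stays below the line throughout, and without SD + OSMI replicate 6 the other 5 genes lie above it.

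The attacin, cecropin, diptericin, drosocin and metchnikowin genes, the classic infection-induced targets of the Imd and Toll pathways, did not pass the diet test. Those tested had a higher fitted variation between replicates than the median tested gene. Of this group 7 could be tested. SD + OSMI replicate 4 was the highest of all 6 libraries for 6 of them and replicate 5 for *Mtk*, while SD + OSMI replicate 6 was the lowest library for 5 of them and the lowest of its diet for all 7. The coefficient of variation of biological origin that edgeR fits to each gene was 1.64 for *DptA*, 0.826 for *AttC*, 0.721 for *DptB* and 0.465 for *Dro*. It was 0.409 for *AttB*, 0.384 for *CecA1* and 0.344 for *Mtk*, against a median of 0.156 over all tested genes. Most of these genes had low counts, and the part of low counts in these values was not tested.

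*AttC*, an attacin active against Gram-negative bacteria, stood at 5.10, 10.1 and 3.89 CPM on CD + OSMI and at 25.4, 13.5 and 1.66 CPM on SD + OSMI. The sugar diet held both the highest and the lowest library, which differed by 15.3-fold, while the control-diet libraries differed by 2.59-fold. The log2 fold change was 1.10 (SE 1.02, adjusted p = 0.614).

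*DptA*, the Imd-dependent diptericin A gene, had 8, 28 and 1 counts on CD + OSMI and 165, 46 and 0 counts on SD + OSMI. The largest count and the 0 were again both on the sugar diet, in replicates 4 and 6. The log2 fold change of 2.43 had an SE of 1.72 (adjusted p = 0.506). *DptB*, which lies 1130 bases from *DptA* on 2R, had 14, 20 and 5 counts and 55, 17 and 2 counts, with its highest and lowest libraries the same as those of *AttC*.

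*Dro*, which encodes the proline-rich peptide drosocin, stood at 0.646, 1.92 and 1.10 CPM on CD + OSMI and at 3.99, 3.38 and 0.677 CPM on SD + OSMI. Replicates 4 and 5 of the sugar diet were above all control libraries and replicate 6 was not. The log2 fold change was 1.15 (SE 0.60, adjusted p = 0.302). *Mtk*, the gene of the antifungal peptide metchnikowin, and *AttB* had log2 fold changes of 0.45 and 0.21 with adjusted p of 0.646 and 0.870.

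*CecA1*, a cecropin gene, differed from the rest of this group in that the diets did not overlap. It had 1, 8 and 0 counts on CD + OSMI and 16, 15 and 11 counts on SD + OSMI. It passed the filter on low counts through the sugar-diet libraries alone, so a difference was built into its selection. The log2 fold change was 2.17 (SE 0.82, adjusted p = 0.141), and the adjusted p was 0.0619 without CD + OSMI replicate 2, in which it had 8 counts, and 0.0751 with limma-voom, which called 6.55% of all tested genes higher. The other cecropins in the same 6065 bases of 3R, *CecA2*, *CecB* and *CecC*, had 21, 10 and 39 counts in all and were not tested. *AttA* and *AttB*, and *CecA1* and *CecA2*, are close copies of each other, and reads may have been split between copies or lost, so their single values are uncertain.

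**Figure D4:**
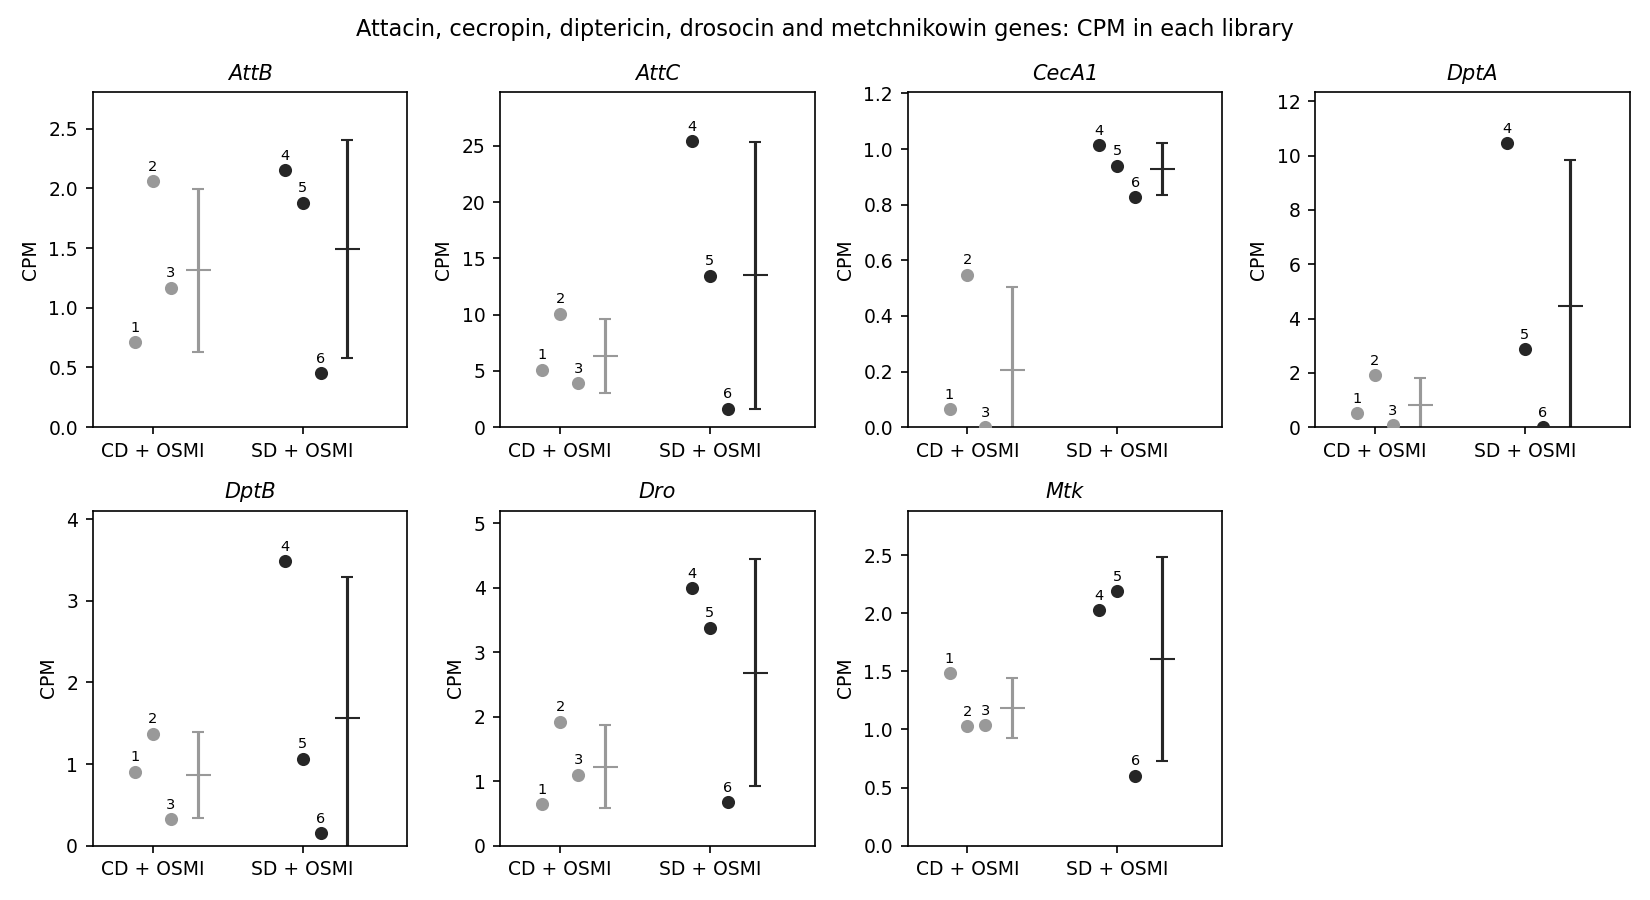
CPM (y axis, from 0) of the 7 tested attacin, cecropin, diptericin, drosocin and metchnikowin genes in each library. Points are libraries labelled by replicate number and bars are the mean and standard deviation of 3 replicates (lower ends below 0 are not drawn). On SD + OSMI replicate 4 is highest for 6 of the 7 genes and replicate 6 is lowest for all 7.

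Among the sugar-diet libraries, *AttB*, *AttC*, *CecA1*, *DptA*, *DptB* and *Dro* were all highest in replicate 4 and lowest in replicate 6. For *CecA1* these libraries were within 1.22-fold. Replicates 4, 5 and 6 had fat body sums of 8280, 6551 and 6876 CPM, with the lowest in replicate 5, and gut sums of 513, 899 and 744 CPM, with the lowest in replicate 4. Most of each fat body sum was *apolpp*, at 7136, 5803 and 5826 CPM, so this sum mainly follows 1 gene. None of the 6 genes lower on SD + OSMI ranked the 3 libraries as these peptide genes did, although *pirk* too was lowest in replicate 6. Over the same 3 libraries *Listericin* was within 1.06-fold and *pirk*, the widest of the 6 lower genes, within 1.83-fold. The mRNA of *Rel*, the gene of the factor that drives the Imd targets, was within 1.01-fold, and its protein was not measured. What lay behind the spread of the peptide genes was not tested.

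All 9 PGRP genes of the set could be tested, and none passed. At an unadjusted p under 0.05 the count was 2 lower and 1 higher, against 6.85% and 14.5% of all tested genes. *PGRP-LC*, the main transmembrane receptor of the Imd pathway, stood at 57.5, 61.4 and 62.1 CPM on CD + OSMI and at 55.7, 55.4 and 54.6 CPM on SD + OSMI. *PGRP-LA*, a membrane PGRP next to it on 3L, stood at 41.0, 36.7 and 40.6 CPM and at 37.2, 29.1 and 37.6 CPM. *PGRP-LE*, an intracellular receptor for small peptidoglycan fragments, stood at 16.6, 16.7 and 13.4 CPM and at 14.1, 14.5 and 12.0 CPM. The diets were close for all 3 receptors, with overlap for *PGRP-LA* and *PGRP-LE* and none for *PGRP-LC*. Their log2 fold changes were -0.19 for *PGRP-LA* (SE 0.11, adjusted p = 0.374), -0.13 for *PGRP-LC* (SE 0.08, adjusted p = 0.422) and -0.20 for *PGRP-LE* (SE 0.16, adjusted p = 0.508).

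A second test asked whether a gene stayed within 1.5-fold between diets, and 4 immune genes passed it at q under 0.05, as did 47.1% of all tested genes. They were *PGRP-LA* (q = 0.0081), *PGRP-LC* (q = 0.00013), *PGRP-LE* (q = 0.044) and *Rel* (q = 8.8e-06). *Rel* stood at 137.7, 155.5 and 149.6 CPM on CD + OSMI and at 137.2, 135.6 and 135.3 CPM on SD + OSMI, and its log2 fold change was -0.12 (SE 0.08, adjusted p = 0.438). The Imd adaptor gene *imd* stood at 10.5, 9.54 and 10.3 CPM and at 9.18, 8.27 and 8.88 CPM. Its libraries did not overlap, but the difference was small (log2 fold change -0.20, SE 0.17, adjusted p = 0.533). With a limit of 2-fold, *imd*, *PGRP-LB* and *PGRP-LF* passed the equivalence test as well, as did 69.4% of all tested genes.

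The PGRPs that restrain the pathway gave mixed values. *PGRP-LB*, a peptidoglycan-cleaving amidase, stood at 8.52, 9.74 and 8.05 CPM on CD + OSMI and at 8.04, 7.64 and 6.25 CPM on SD + OSMI, and the lowest control library and the highest sugar library were nearly equal (log2 fold change -0.26, SE 0.19, adjusted p = 0.476). *PGRP-SC2*, another amidase, had 10, 3 and 5 counts on CD + OSMI and 21, 14 and 19 counts on SD + OSMI. All 3 sugar-diet libraries were above the control libraries at these low counts, but the gene did not pass the test (log2 fold change 1.60, SE 0.58, adjusted p = 0.127). Its adjusted p was 0.0743 without CD + OSMI replicate 1. Only 1 control-diet library reached 10 counts, so, like *CecA1*, it passed the filter on low counts through the sugar-diet libraries. A difference was thus partly built into its selection. *PGRP-LF*, which blocks PGRP-LC at the membrane, had a log2 fold change of -0.37 (adjusted p = 0.445), and it shares 602 bases of exon with *UGP* on the other strand.

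Of the other secreted PGRPs, *PGRP-SD*, which helps sense bacteria for the Toll and Imd pathways, was chosen for a fuller account after its values were seen. It stood at 3.23, 4.25 and 3.89 CPM on CD + OSMI and at 1.65, 1.38 and 2.71 CPM on SD + OSMI, without overlap. Its fitted level on SD + OSMI was 0.501 of that on CD + OSMI (SE 0.34 on the log2 scale), with an adjusted p of 0.108 in edgeR, and it passed the threshold in DESeq2 (2.99% of all tested genes lower) and in limma-voom (1.79% lower). *PGRP-SB1*, a secreted amidase, and *PGRP-SA*, the Toll pathway receptor for Gram-positive bacteria, had log2 fold changes of -0.62 (adjusted p = 0.209) and 0.32 (adjusted p = 0.661).

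Levels of different genes were compared as CPM per kb of exon. *Drsl5* was the highest immune gene, at 139 ± 33.1 CPM per kb on CD + OSMI and 73.3 ± 7.12 on SD + OSMI. *Rel* followed at 42.2 ± 2.58 and 38.9 ± 0.289 CPM per kb, and *Drsl4* overlapped with *Rel* on CD + OSMI, at 44.1 ± 6.40 CPM per kb, but lay below it on SD + OSMI, at 17.6 ± 1.80. *TotA* (24.3 ± 2.86 and 15.4 ± 2.27), *PGRP-LA* (18.8 ± 1.13 and 16.5 ± 2.28), *TotX* (16.5 ± 1.90 and 9.64 ± 1.32) and *PGRP-LC* (16.1 ± 0.667 and 14.8 ± 0.163) came next and overlapped in part, all in CPM per kb. Several of the genes that were lower on the sugar diet were therefore among the most abundant immune mRNAs in these libraries, while of the classic inducible peptides only *AttC*, at 7.07 ± 3.65 and 15.01 ± 13.2 CPM per kb, ranked above the 13th of 36 matched genes.

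**Figure D5:**
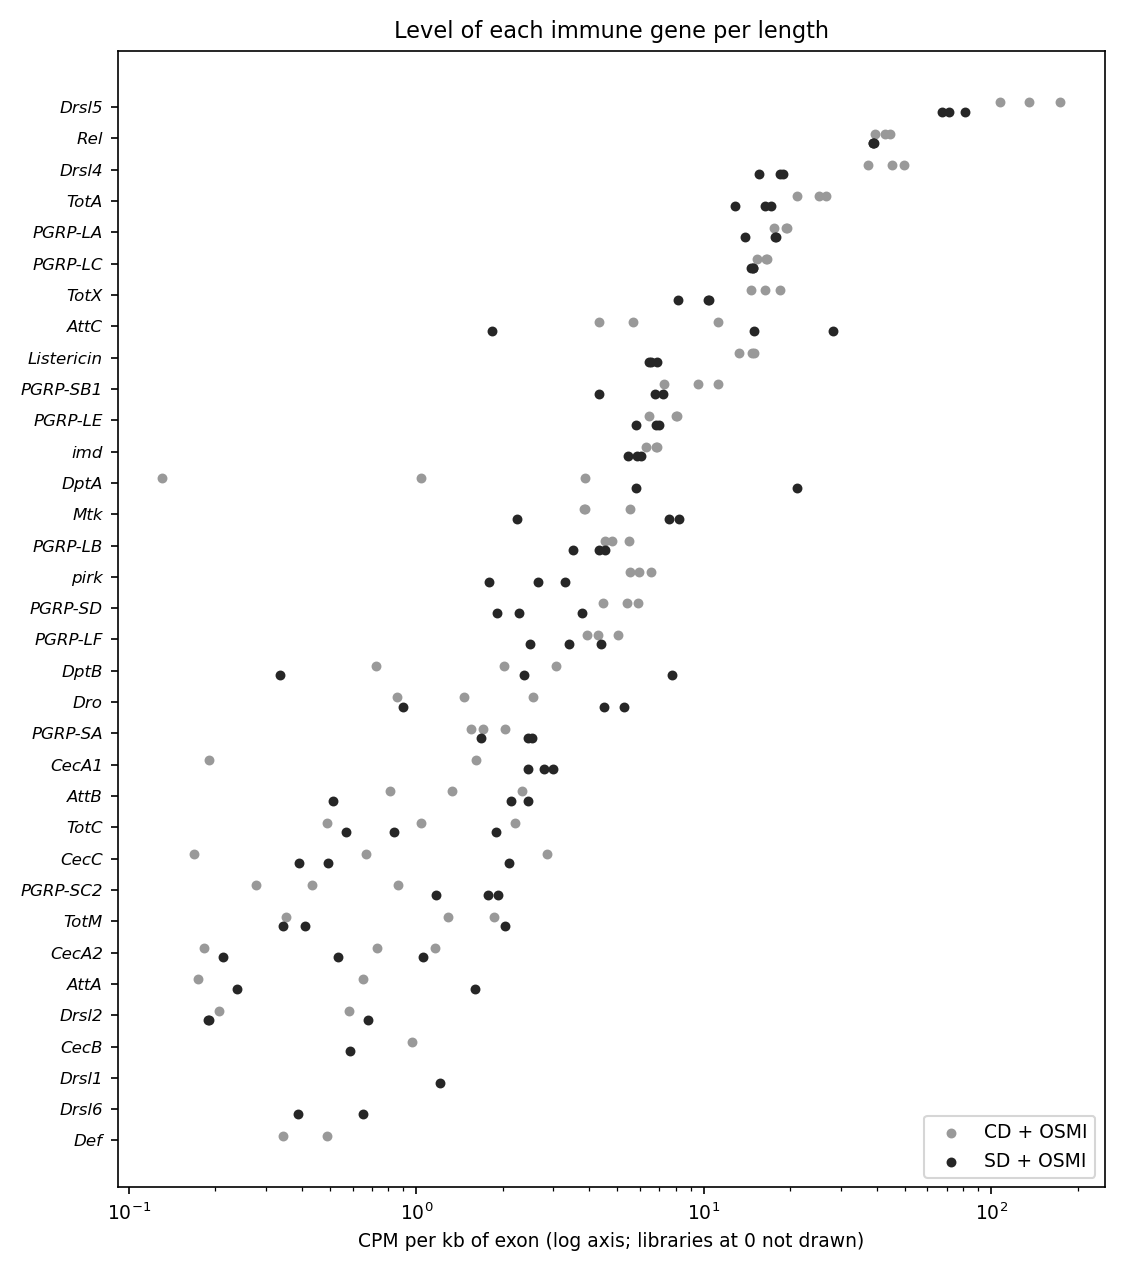
CPM per kb of exon (x axis, log scale) of each matched immune gene with at least 1 count, one point per library, in the order of the mean over all libraries. Libraries at 0 are not drawn. *Drsl5* lies to the right of all others, and the points of *AttC* on SD + OSMI are widely spread. *DptA* was at 0 in SD + OSMI replicate 6, so that library is missing from its row.

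The 11 untested genes were *AttA*, *AttD*, *CecA2*, *CecB*, *CecC*, *Def*, *Drsl1*, *Drsl2*, *Drsl3*, *Drsl6* and *TotC*, and none had more than 57 counts over all libraries. *AttD*, a non-secreted attacin, and *Drsl3* had 0 counts in every library, which allows a level of up to 0.188 to 0.226 CPM per library (3 counts, counting error only). The defensin gene *Def* had 0, 2 and 3 counts on CD + OSMI and 0 counts in the 3 libraries of SD + OSMI, a difference not detectable at this depth.

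Other genes of the same pathways, taken from 8 lists of 118 entries, were tested in the same fit. Of 91 tested, 3 were higher and 3 lower, against 6.91% and 2.18% of all tested genes, with a median log2 fold change of -0.05. Among 18 other Imd pathway genes, the 1 past the threshold was *cad*, a homeobox gene known to repress peptide genes in the gut, with 18.7, 10.6 and 12.8 CPM on CD + OSMI and 18.6, 25.9 and 21.0 CPM on SD + OSMI. The diets overlapped, and its log2 fold change was 0.63 (adjusted p = 0.0960). Among 20 Toll pathway genes, the NF-κB factor gene *Dif* was lower by a small amount without overlap, with 157.9, 155.1 and 153.9 CPM on CD + OSMI and 135.7, 122.9 and 124.9 CPM on SD + OSMI (log2 fold change -0.28, adjusted p = 0.0610). None of 9 tested JAK/STAT and other Turandot genes and none of 8 melanization genes passed, with 1 gene of each list at an unadjusted p under 0.05.

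Of 17 other secreted immune peptide genes, *Anp*, the gene of the ejaculatory duct peptide andropin, was higher (log2 fold change 2.05, adjusted p = 0.0044), with 1.94, 1.51 and 1.30 CPM on CD + OSMI and 4.56, 7.95 and 7.30 CPM on SD + OSMI. It is also on the list of male reproductive markers, most of which were higher, and the part of that signal in its rise was not tested. The 12 Bomanin genes, Toll targets that encode short secreted peptides, gave no call, with log2 fold changes from -1.12 to 0.08 and a lowest adjusted p of 0.168. Their median log2 fold change was -0.20, and 11 of the 12 were below 0, against 50.4% of all tested genes. Of 15 thioester protein and phagocytosis genes *Tep2*, a thioester protein gene, was lower (log2 fold change -0.51, adjusted p = 0.016), with 147.3, 179.0 and 160.0 CPM on CD + OSMI and 129.2, 107.8 and 105.1 CPM on SD + OSMI. *NimB2*, which encodes a secreted Nimrod protein, was higher (log2 fold change 0.38, adjusted p = 0.0873), with 42.1, 55.2 and 45.3 CPM and with 53.0, 64.5 and 67.8 CPM. *Tep2* did not overlap between diets and *NimB2* did. Of 4 tested lysozymes *LysD* was lower (log2 fold change -1.82, adjusted p = 0.0542), with 5.62, 10.6 and 18.1 CPM and with 2.79, 2.94 and 3.99 CPM, again without overlap. None of the 4 other PGRP genes had enough counts to test.

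None of the 6 genes that were lower shares exon bases with another annotated gene. *AttC*, *DptB*, *imd* and *PGRP-SD* share 53, 48, 40 and 35 bases of exon with a gene on the other strand. Whether reads were counted by strand is not given in the sources used here, so a few reads of these 4 genes and of *PGRP-LF* may belong to their partners.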

How the data were processed

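Reads were aligned to BDGP6 by the authors (STAR, SAMtools 1.4) and assigned to genes with HTSeq, and the deposited values are raw counts of 17489 genes without normalization. Gene names and positions came from the BDGP6 annotation, which held 17215 of the IDs. No reference sequence was used here. Diets were compared in R 4.3.3 with edgeR 4.0.16 (quasi-likelihood F test, TMM factors, diet as the only term, genes reaching 10 counts in 3 or more libraries) at an adjusted p (Benjamini-Hochberg) under 0.1. The SE was derived from the log2 fold change and its F. CPM used TMM library sizes. Practical equivalence used a DESeq2 1.42.0 fit, with a limit of 1.5-fold and q under 0.05. The alternatives were DESeq2, limma-voom (limma 3.58.1), RLE and upper-quartile factors, other filters, an adjusted p under 0.05, a 2-fold limit of equivalence, and leaving out the 20 most abundant genes, the male reproductive lists or each library. The tests were checked on simulated counts. Plots used Python 3.11.15 and matplotlib 3.10.9.

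Members and lists were chosen with earlier results of these data known. Values in every library are given for members past the threshold, the 10 of highest mean CPM and the 6 with the largest change, and, of each pathway list, for at most 4 genes past the threshold with the smallest p. The 12 marker lists are given as counts of genes past the threshold or as summed CPM, with single genes named for the fat body and gut lists. Total counts of 13324513 to 16122009 per library and 3 replicates limit the precision. Replicates of a diet differed by more than sampling noise (chi-square over degrees of freedom, 10.4 to 32.8), and p-values measure the spread between these samples. The labels give no sequencing batch.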

Additional observations from a re-analysis of the deposited data

How the results depend on the processing

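No paired analysis was possible because the diets share no replicate numbers. Direction held for all 17 members with full values under every alternative that gave a value, with 0 reversed. Over the 226 comparisons with an adjusted p, 209 kept their side of the threshold, 14 lost it and 3 gained it, and DESeq2 gave no adjusted p for 2 (*CecA1* and *PGRP-SC2*). With one library left out, the number of members lower ranged from 1 to 6 and higher from 0 to 1, and over all genes the lower ranged from 34 to 800 and the higher from 42 to 1634. The fewest came without SD + OSMI replicate 6 (1 member, *Drsl4*, with 0.289% of all genes lower). Without CD + OSMI replicate 3, 3 members were lower, *Drsl4*, *Drsl5* and *pirk* (0.467% of all genes). Without SD + OSMI replicate 5, 3 were lower, *Drsl4*, *Listericin* and *pirk* (0.557% of all genes). The most genes over all came without SD + OSMI replicate 4. Members lower numbered 7 with DESeq2, limma-voom, no filter or a filter of 50 counts, each time with *PGRP-SD* added. The shares of all genes lower were 2.99%, 1.79%, 2.18% and 2.88% in that order. At an adjusted p under 0.05, 5 members were lower, without *TotA* (0.755% of all genes). Limma-voom called 1 member higher, *CecA1* (6.55% of all genes). At an adjusted p under 0.05, 310 genes were higher and 90 lower. With a 2-fold limit 7 members passed the equivalence test. Low counts limit the cecropins, *Def*, *TotC*, *TotM* and *PGRP-SC2*, and 3 replicates per diet limit the inducible peptides.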
